A study of Mus musculus with 4 samples.

Results

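The cell cycle and proliferation genes described here are 40 genes chosen by symbol, of which 17 act in S phase and 23 in G2 and mitosis. All 40 were found among the 49993 genes of each count table, and all 40 passed the filter on low counts. Bulk RNA-seq was made from CD11b+ microglia, immune cells that reside in the brain, after magnetic sorting from brains of 10-month-old mice. Every animal carried APP/PS1, transgenes under which amyloid builds up in the brain. The AD group (APP/PS1+ asrij+/+, n = 2 libraries) had the asrij gene, and the AD/KO group (APP/PS1+ asrij-/-, n = 2 libraries) had lost it throughout the body. No group without APP/PS1 was analysed here, and the promoters that drive the transgenes, any pooling of animals and whether the 2 libraries of a group came from separate mice were not given in the sources used here. P-values therefore measure only the spread between these libraries.

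A dividing cell passes a fixed series of steps. The licensing factors Cdc6 and Cdt1 load the Mcm helicase on origins before cyclin E with its kinase starts S phase. Pcna then clamps the polymerases while Rrm1, Rrm2, Tyms and Tk1 supply nucleotides. Cdk1 with cyclin B then drives mitosis, in which Aurora and Polo kinases, kinesins and centromere proteins sort the chromosomes and anillin helps to close the cleavage furrow. Adult microglia divide rarely in the healthy brain and divide more around amyloid plaques, where Mki67 is the usual marker of cycling cells.

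The libraries held from 13102622 to 19810076 counts. Ociad1, the mouse gene for asrij, was at 50.2 and 63.4 CPM (counts scaled to library size and composition) in AD and at 38.9 and 32.1 CPM in AD/KO, so that the transcript was lower but not lost. Which exons the allele lacks was not given in the sources used here. AD and AD/KO therefore mean the libraries labelled so. AD replicate 2 stood apart from the others in Xist, a transcript of the female inactive X, with 1391 reads against 3 to 15 reads. It also stood apart in neutrophil RNA. Markers of neutrophil precursors summed to 3499 CPM there, against 228 to 400 CPM. Markers of mature neutrophils summed to 2640 CPM, against 506 to 1191 CPM. AD/KO replicate 2 held the most RNA of other brain cells, but part of this RNA also differed with the group. Astrocyte markers summed to 1838 and 4317 CPM in AD and to 4484 and 11494 CPM in AD/KO. Of the 8 markers, 7 were higher in both AD/KO libraries, beside 20.3% of all genes tested. Mature oligodendrocyte markers summed to 1643 and 2635 CPM in AD and to 3921 and 8559 CPM in AD/KO, while neuron sums overlapped. The part of these cells in the member levels was not tested. AD/KO replicate 2 also held the least homeostatic microglial RNA, with 9006 summed CPM against 18250 to 27295 CPM. All 20 microglial markers were detected in every library. In bulk RNA, fewer cycling cells and less RNA per cycling cell cannot be told apart.

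The summed levels of the mitosis and of the S phase genes were lower in the AD/KO libraries than in the AD libraries, but no single member passed the test adjusted over all genes, and no test compared the 2 sets with each other. The 23 mitosis members summed to 175 CPM in AD replicate 1 and 431 CPM in AD replicate 2, against 86.2 and 85.2 CPM in the AD/KO libraries. Both AD/KO libraries lay at nearly the same level, while the AD libraries were far apart (303 ± 181 CPM in AD and 85.7 ± 0.691 CPM in AD/KO, SD, n = 2 each). Single genes carried much of these sums. Anln made up 27.9 and 32.5 CPM of the AD/KO sums, and Mki67 made up 45.6 and 145 CPM of the AD sums. The 17 S phase members summed to 237 and 264 CPM in AD and to 176 and 125 CPM in AD/KO (251 ± 18.8 and 150 ± 35.5 CPM, SD, n = 2 each). The groups overlapped in neither sum. The log2 ratio of the group means was −1.82 for mitosis and −0.74 for S phase. Without AD replicate 2 it was −1.03 for mitosis, and with libraries scaled to the reads of the homeostatic microglia list it was −1.27 for mitosis and −0.22 for S phase.

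**Figure D1:**
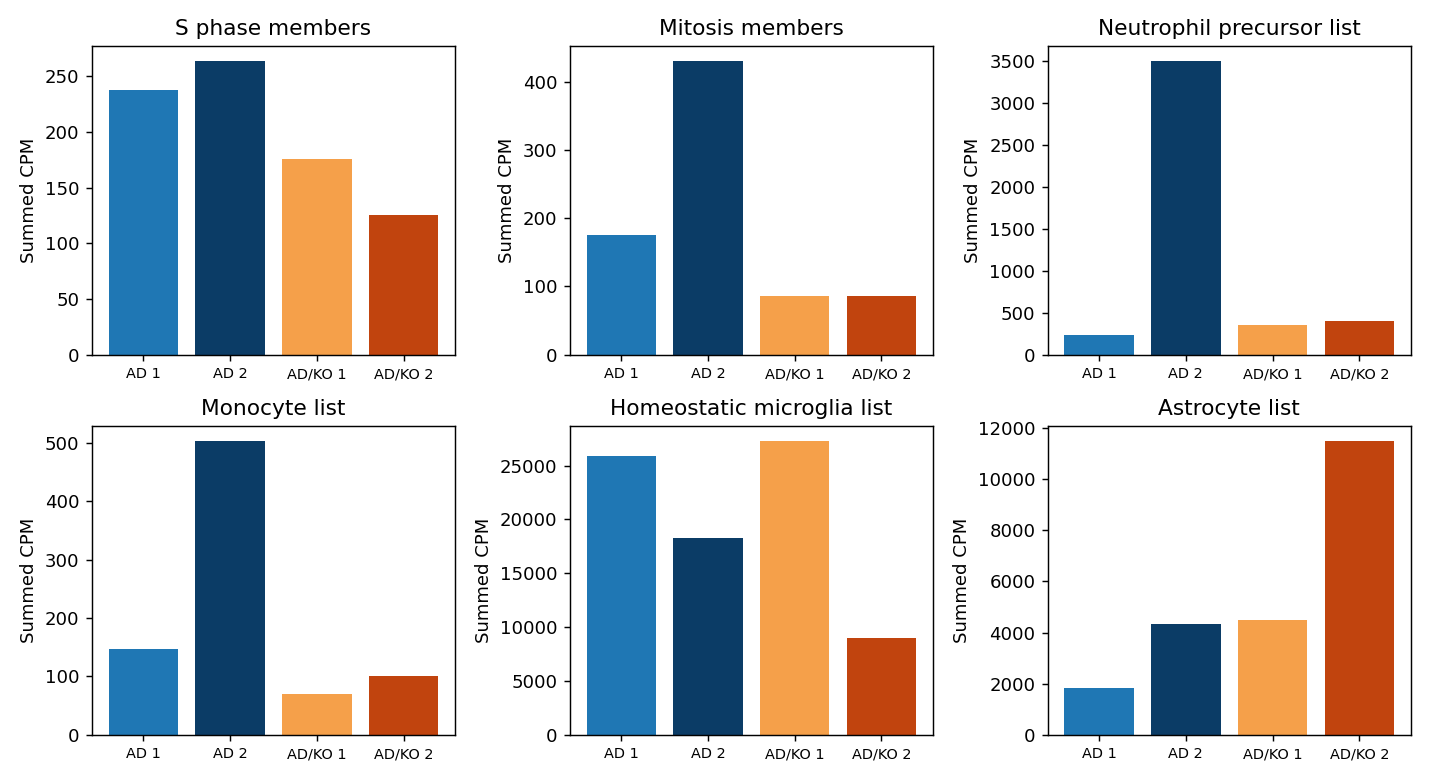
Summed level (CPM after scaling, linear axes from 0) of the S phase members, the mitosis members and 4 marker lists in each of the 4 libraries (AD 1, AD 2, AD/KO 1, AD/KO 2), 1 bar per library. Both member sums are higher in the 2 AD libraries, and AD 2 alone is high in the neutrophil precursor list (3499 CPM).

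The balance between the S phase and mitosis sets also differed between libraries. The mitosis sum divided by the S phase sum was 0.737 and 1.63 in AD replicates 1 and 2 and 0.491 and 0.680 in AD/KO replicates 1 and 2. Both AD libraries had the higher ratio, but AD replicate 1 lay closer to AD/KO replicate 2 than to AD replicate 2.

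Gene by gene, the edgeR quasi-likelihood test with Benjamini-Hochberg adjustment called 0 of 17 S phase and 0 of 23 mitosis members at 0.05, beside 0% of the 21439 genes tested. At an unadjusted p under 0.05, 13 mitosis members and 5 S phase members were lower in AD/KO and 0 were higher, beside 2.3% of all genes lower and 2.7% higher. DESeq2, a second count model, called 3 mitosis members (Mki67, Top2a and Cenpf), all lower in AD/KO, and 0 S phase members, beside 0.248% of all genes called lower. All 23 mitosis members and 16 of 17 S phase members had a fitted log2 fold change below 0, beside 52.8% of all genes. Without AD replicate 2, 20 mitosis and 11 S phase members were below 0, and with scaling to the homeostatic list 22 and 12 were. The median log2 fold change of the members was −1.95 for mitosis and −0.92 for S phase, against −0.05 over all genes tested. Without AD replicate 2 the mitosis median was −1.21 and the S phase median −0.77, and 4 mitosis and 0 S phase members had an unadjusted p under 0.05, beside 1.15% of all genes lower at that threshold. At an adjusted p under 0.05 edgeR then called 0 members, beside 2.28% of all genes. Without AD replicate 1 it called Mki67, Top2a and Cenpf, beside 0.208% of all genes.

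Each AD/KO library was below each AD library in 19 of 23 mitosis members and in 10 of 17 S phase members, beside 21.7% of all genes tested. The reverse held for 0 mitosis members and for 1 S phase member (Ccne1), beside 20.3% of all genes. With scaling to the homeostatic list the counts were 10 of 23 and 4 of 17, beside 11% of all genes. On that scale 6 mitosis and 0 S phase members were lower at an unadjusted p under 0.05, beside 0.452% of all genes. That scaling raised the median of all genes to 0.57. Relative to it, the median was −2.09 for mitosis and −1.01 for S phase, but the sums then overlapped between the groups. On that scale the mitosis sums were 125 and 436 in AD and 58.3 and 175 in AD/KO, and the S phase sums were 169 and 267 in AD and 119 and 257 in AD/KO. AD/KO replicate 2, which held the least microglial RNA, was then above AD replicate 1 in both.

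**Figure D2:**
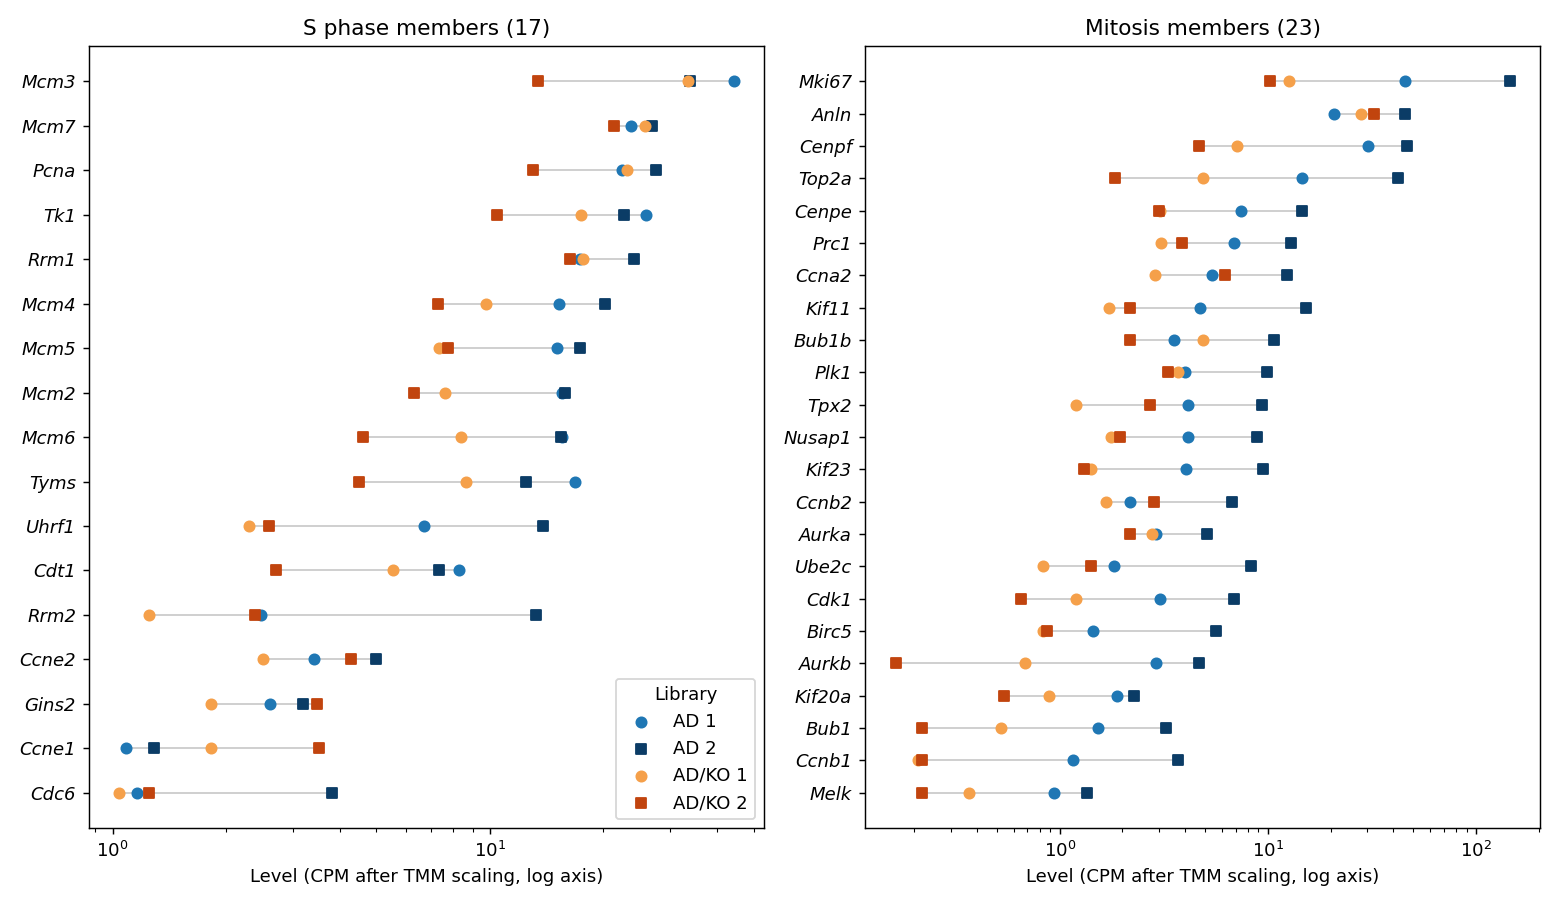
Level of each member in each library (CPM after scaling, log axis), with S phase members on the left and mitosis members on the right, ordered by mean level, 1 point per library. AD 2 is the highest point in all 23 mitosis rows, and the AD/KO points lie to the left of both AD points in 19 of them.

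Among the S phase members, the helicase subunits Mcm2, Mcm4, Mcm5 and Mcm6 stood at about the same level in both AD libraries and lower in both AD/KO libraries. Mcm2 (gene ID 17216, chromosome 6, 88883474 to 88898780) was at 15.5 and 15.8 CPM in AD and at 7.61 and 6.29 CPM in AD/KO. Mcm5 (gene ID 17218, chromosome 8, 75109468 to 75128439) was at 15.02 and 17.3 CPM in AD and at 7.35 and 7.76 CPM in AD/KO. Mcm4 (gene ID 17217, chromosome 16, 15623897 to 15637400) was at 15.2 and 20.2 CPM in AD and at 9.75 and 7.27 CPM in AD/KO. In these 3 genes the groups did not overlap. The AD libraries lay close together in Mcm2 and Mcm5 but less so in Mcm4, whose log2 fold change was −0.77 without AD replicate 2. Mcm6 showed the same separation, at 15.5 and 15.4 CPM in AD and at 8.39 and 4.61 CPM in AD/KO. The log2 fold changes were −1.17 (SE 0.35) for Mcm2, −1.06 (SE 0.38) for Mcm4, −1.10 (SE 0.34) for Mcm5 and −1.25 (SE 0.44) for Mcm6, with an edgeR unadjusted p between 0.0215 and 0.0384 and an adjusted p of 0.680 for each.

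The other helicase subunits showed less separation or none. Mcm3 (gene ID 17215, chromosome 1, 20802966 to 20820312) was at 44.3 and 33.9 CPM in AD and at 33.5 and 13.5 CPM in AD/KO, so that AD replicate 2 and AD/KO replicate 1 were nearly level. Mcm7 (gene ID 17220, chromosome 5, 138164583 to 138172111) was at 23.7 and 27.0 CPM in AD and at 25.9 and 21.3 CPM in AD/KO, and the groups overlapped. The log2 fold change was −0.74 (SE 0.51) for Mcm3 and −0.10 (SE 0.30) for Mcm7. The Mcm3 value was −1.48 without AD/KO replicate 1 and −0.21 without AD/KO replicate 2. The Mcm7 value was 0.06 without AD replicate 2 and 0.47 with scaling to the homeostatic list. The microRNA genes Mir25 and Mir93 lie inside Mcm7.

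The licensing factors were split. Cdt1, which brings the helicase to origins, was at 8.27 and 7.31 CPM in AD and at 5.53 and 2.71 CPM in AD/KO. Cdc6, its partner, was at 1.16, 1.04 and 1.25 CPM in AD replicate 1 and the AD/KO libraries, and at 3.81 CPM in AD replicate 2. Only AD replicate 2 was high in Cdc6, while in Cdt1 both AD libraries were above both AD/KO libraries. Gins2, a part of the moving helicase, overlapped between the groups, with 1.82 to 3.47 CPM over the 4 libraries.

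Pcna, the polymerase clamp, and the nucleotide enzymes gave mixed values. Pcna (gene ID 18538, chromosome 2, 132249286 to 132253180) was at 22.4 and 27.6 CPM in AD and at 23.1 and 13.02 CPM in AD/KO. Its log2 fold change was −0.47 (SE 0.40). Its groups overlapped, and AD/KO replicate 2 alone was low. Without that library the Pcna value was −0.10. Tk1, thymidine kinase (gene ID 21877, chromosome 11, 117815519 to 117826087), was at 26.0 and 22.6 CPM in AD and at 17.5 and 10.5 CPM in AD/KO. Its log2 fold change was −0.80 (SE 0.38). Tyms, thymidylate synthase, was at 16.8 and 12.5 CPM in AD and at 8.65 and 4.50 CPM in AD/KO. In both thymidine enzymes the AD/KO libraries were the lower ones.

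The ribonucleotide reductase subunits differed from each other. Rrm1, the large subunit, which resting cells also keep, was at 17.3 and 24.2 CPM in AD and at 17.6 and 16.3 CPM in AD/KO. Rrm2, the small subunit made in S phase, was at 2.47 and 13.2 CPM in AD and at 1.25 and 2.39 CPM in AD/KO. Only AD replicate 2 stood out in either. The Rrm2 log2 fold change of −2.11 (SE 0.94) was −0.38 without AD replicate 2.

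Uhrf1, which guides the copying of DNA methylation at replication forks, had the smallest p of the S phase members. It (gene ID 18140, chromosome 17, 56303337 to 56323486) was at 6.68 and 13.8 CPM in AD and at 2.29 and 2.60 CPM in AD/KO. Its log2 fold change was −2.06 (SE 0.55, edgeR unadjusted p = 0.0135, adjusted p = 0.680). Both AD libraries were above the AD/KO libraries, with AD replicate 2 the highest. The E cyclins did not follow. Ccne1 was the 1 S phase member with a log2 fold change above 0, at 1.09 and 1.29 CPM in AD and 1.82 and 3.53 CPM in AD/KO (1.16, SE 0.63). Ccne2 overlapped, at 3.41 and 4.98 CPM in AD and 2.50 and 4.29 CPM in AD/KO.

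Per kilobase of exon, the mean level over the 4 libraries was highest for Pcna (8.97 CPM per kb), Mcm3 (8.33) and Mcm7 (5.53) among the S phase members, and for Mki67 (5.31), Anln (3.49) and Plk1 (2.38) among the mitosis members. On this length-scaled level, the lowest were Cdc6 (0.347) and Melk (0.242). The 3 S phase genes with the highest level were therefore ones whose groups overlapped or nearly touched.

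Mki67 and Top2a gave the widest differences among the abundant mitosis members. Mki67, the source of the Ki-67 antigen (gene ID 17345, chromosome 7, 135689784 to 135716450), had 628 and 2362 reads in AD and 242 and 189 reads in AD/KO, or 45.6, 145, 12.6 and 10.3 CPM. AD replicate 2 was the highest, but AD replicate 1 was also well above both AD/KO libraries. The log2 fold change was −3.06 (SE 0.64, edgeR unadjusted p = 0.00512, adjusted p = 0.680), and by DESeq2 the adjusted p was 0.0014. Without AD replicate 2 it was −1.93, with an edgeR adjusted p of 0.100.

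Top2a, the topoisomerase that untangles chromosomes (gene ID 21973, chromosome 11, 98992947 to 99024199), was at 14.5 and 42.2 CPM in AD and at 4.90 and 1.85 CPM in AD/KO. The order of the libraries was that of Mki67. The log2 fold change was −3.07 (SE 0.77, edgeR unadjusted p = 0.0111, adjusted p = 0.680; DESeq2 adjusted p = 0.00970) and was −2.03 without AD replicate 2.

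Centromere proteins followed the same order. Cenpf (gene ID 108000, chromosome 1, 189640606 to 189688107), a large kinetochore protein, was at 30.2 and 46.4 CPM in AD and at 7.14 and 4.67 CPM in AD/KO. It had the smallest edgeR p of the 40 members (0.00149, adjusted p = 0.680), a log2 fold change of −2.70 (SE 0.42) and a DESeq2 adjusted p of 0.00234. It also depended least on AD replicate 2 among the 3 genes that DESeq2 called, at −2.29 without it. Cenpe, the kinetochore motor, was at 7.40 and 14.6 CPM in AD and at 3.02 and 2.98 CPM in AD/KO.

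Cdk1, the mitotic kinase, was at 3.05 and 6.88 CPM in AD and at 1.20 and 0.651 CPM in AD/KO. Ccnb1, its cyclin B1 partner, had 16 and 60 reads in AD and 4 and 4 reads in AD/KO, the largest fitted difference of the 40 members (−3.47, SE 0.89) on very few reads. Its counts are uncertain, since 3 pseudogenes (Ccnb1-ps, Gm12856 and Gm8416) match it over 1287 to 1294 bases at 97.3% to 99.2% identity. The other mitotic cyclins differed from cyclin B1. Ccna2 (gene ID 12428, chromosome 3, 36564865 to 36573038), which also acts in S phase, was at 5.37 and 12.3 CPM in AD and at 2.87 and 6.24 CPM in AD/KO. Ccnb2 (gene ID 12442, chromosome 9, 70407689 to 70421554) was at 2.18 and 6.70 CPM in AD and at 1.67 and 2.82 CPM in AD/KO. In both, AD/KO replicate 2 was above AD replicate 1. The log2 fold changes were −0.96 (SE 0.65) for Ccna2 and −0.98 (SE 0.74) for Ccnb2. Without AD replicate 2 they were −0.18 and 0.10.

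The mitotic kinases fell into 2 kinds. Aurkb, the kinase of the chromosomal passenger complex, was at 2.90 and 4.67 CPM in AD and at 0.678 and 0.163 CPM in AD/KO. Bub1, a kinase of the spindle checkpoint, was at 1.52 and 3.26 CPM in AD and at 0.521 and 0.217 CPM in AD/KO. Both were low in each AD/KO library, with log2 fold changes of −3.15 (SE 0.87) and −2.67 (SE 0.82) and few reads (3 to 13 in AD/KO). Aurka and Plk1, the centrosome kinases, differed less. Plk1 (gene ID 18817, chromosome 7, 122159435 to 122169884) was at 3.99 and 9.90 CPM in AD and at 3.70 and 3.31 CPM in AD/KO, and Aurka at 2.90 and 5.10 CPM in AD and at 2.76 and 2.17 CPM in AD/KO. In these 2 genes AD replicate 1 was barely above AD/KO replicate 1. The Plk1 log2 fold change of −0.99 (SE 0.60) was −0.12 without AD replicate 2. Bub1b, the checkpoint partner of Bub1, overlapped between the groups, at 3.56 and 10.8 CPM in AD and 4.90 and 2.17 CPM in AD/KO. Melk, another kinase of cycling cells, had 13 and 22 reads in AD and 7 and 4 reads in AD/KO.

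The motors and spindle proteins were lower in both AD/KO libraries. Kif11, the motor that pushes spindle poles apart, was at 4.72 and 15.2 CPM in AD and at 1.72 and 2.17 CPM in AD/KO. Kif23, a motor of the spindle midzone, was at 4.06 and 9.47 CPM in AD and at 1.41 and 1.30 CPM in AD/KO. Log2 fold changes were −2.36 (SE 0.71) and −2.32 (SE 0.63), and without AD replicate 2 they were −1.21 and −1.52. In Kif20a, Tpx2, Nusap1 and Prc1, the other motor and microtubule-binding proteins, both AD/KO libraries were also below both AD libraries, with log2 fold changes from −1.81 to −1.52. Birc5 (survivin) and Ube2c, the ubiquitin-conjugating enzyme that starts the exit from mitosis, had values of 1.45 and 1.81 CPM in AD replicate 1. Those lay closer to the AD/KO range of 0.834 to 1.41 CPM than to the 5.65 and 8.30 CPM of AD replicate 2.

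Anln, the furrow protein anillin (gene ID 68743, chromosome 9, 22331214 to 22389211), was the exception among the abundant mitosis members. It was at 20.8 and 45.4 CPM in AD and at 27.9 and 32.5 CPM in AD/KO, so that AD replicate 1 was the lowest of the 4. The log2 fold change was −0.13 (SE 0.45), and it was 0.60 without AD replicate 2 and 0.49 with scaling to the homeostatic list. Mature oligodendrocytes also make anillin, and their 8 markers summed to 1643 and 2635 CPM in AD and 3921 and 8559 CPM in AD/KO. Their part in the Anln level was not tested.

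**Figure D3:**
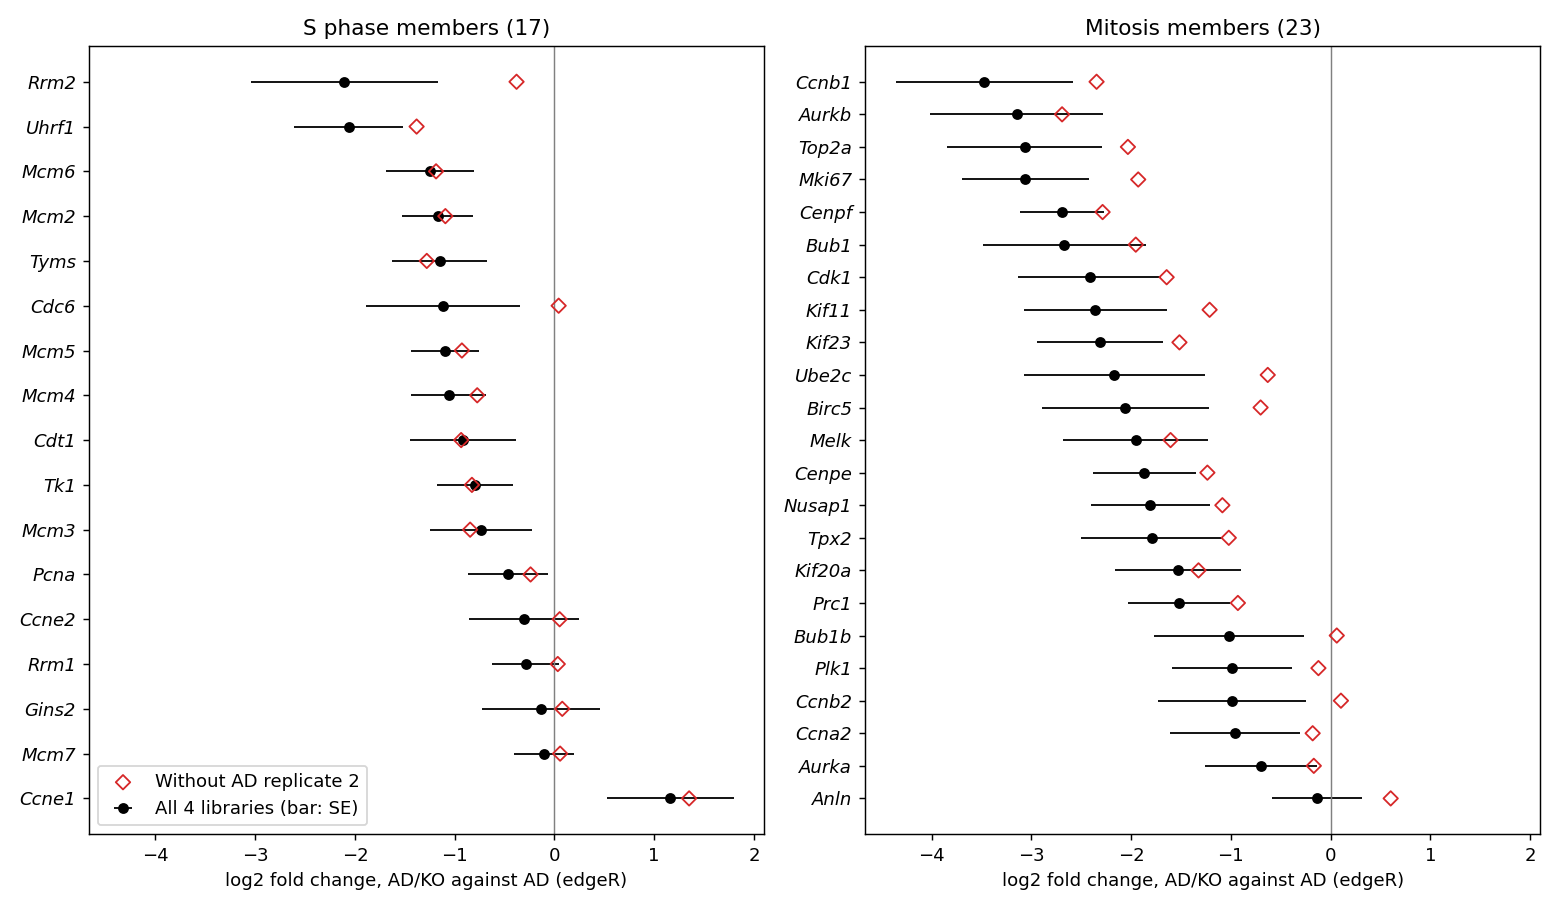
Log2 fold change of AD/KO against AD for each member (edgeR, linear axis; black points with SE bars, all 4 libraries; open red diamonds, without AD replicate 2), S phase members on the left and mitosis members on the right. All 23 mitosis points and 16 of 17 S phase points lie below 0 with all libraries. The diamonds of 3 mitosis members (Ccnb2, Bub1b and Anln) and of 6 S phase members (Ccne1, Ccne2, Cdc6, Mcm7, Gins2 and Rrm1) lie above 0.

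AD replicate 2 had the highest level of all 4 libraries in 23 of 23 mitosis members and in 10 of 17 S phase members, beside 14.2% of all genes tested. It was above both AD/KO libraries in 23 of 23 and 15 of 17, beside 29.4% of all genes. Markers of cells that divide in bone marrow were highest in the same library. Elane, a granule protease of neutrophil precursors, had 179 reads there and 2 to 4 reads in the others, Mpo had 329 against 3 to 14, and Ms4a3 had 38 against 0. All 12 precursor markers were highest in AD replicate 2, as were 9 of 10 markers of mature neutrophils. Ms4a3 was at 0 reads in each of the other libraries, Ctsg at 0 or 1 read and Prtn3 at 0 to 7 reads. Monocyte markers summed to 147 and 503 CPM in AD and to 69.7 and 100 CPM in AD/KO. Chil3, which is also among the 12 precursor markers, made up 294 of the 503 CPM in AD replicate 2. The part of these cells in the mitosis level of AD replicate 2 was not tested.

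AD replicate 1 allowed a comparison without that library. Its precursor markers summed to 228 CPM, below the 350 and 400 CPM of the AD/KO libraries, and 0 of the 12 were above both AD/KO libraries. Its mature neutrophil markers summed to 1191 CPM, of which Csf3r made up 996 CPM, against 912 and 506 CPM in AD/KO. Of these 10 markers, 3 were above both AD/KO libraries. Its mitosis members summed to 175 CPM, against 86.2 and 85.2 CPM, and 19 of 23 were above both AD/KO libraries, as were 10 of 17 S phase members, beside 42.8% of all genes tested. Of 8 monocyte markers, 6 were also above both AD/KO libraries in AD replicate 1, among them Ccr2 (39.8 CPM against 10.3 and 6.13 CPM) and Ms4a4c (5.73 against 1.51 and 0.488 CPM), and Chil3 and Vcan were not. Markers of border-associated macrophages summed to 137 and 101 CPM in AD and to 70.2 and 60.8 CPM in AD/KO, and 7 of 8 were above both AD/KO libraries in AD replicate 1. F13a1 is in both lists. The part of these cells in the mitosis level of that library was not tested. Markers of oligodendrocyte precursors summed to 99.1 and 236 CPM in AD and to 161 and 328 CPM in AD/KO, with AD replicate 1 the lowest, and those of neural progenitors and neuroblasts to 109 and 149 CPM in AD and to 128 and 111 CPM in AD/KO. Most of the latter sum was Sox4 and Cd24a, which overlapped between the groups. The median log2 fold change of the 8 tested genes of that list was 1.18. Of all 10 genes in it, 4 (Dcx, Sox11, Dlx1 and Dlx2) were higher in both AD/KO libraries, beside 20.3% of all genes tested. T and NK cell markers summed to at most 4.86 CPM in any library, and B cell markers ran from 15.1 to 24.0 CPM.

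The rest of the machinery was read from lists of other genes. Of 30 other mitosis genes, all with a log2 fold change below 0 (median −1.74), 25 were lower without overlap between the groups, beside 21.7% of all genes, and 16 were lower at an unadjusted p under 0.05, beside 2.3% of all genes. With scaling to the homeostatic list 15 of 30 were lower without overlap, beside 11% of all genes. Knl1, the kinetochore scaffold, was at 10.0 and 16.3 CPM in AD and at 1.15 and 0.923 CPM in AD/KO (log2 fold change −3.66, SE 0.52, DESeq2 adjusted p = 7.0e-05). Cep55, which acts in the last cut between daughter cells, was at 2.10 and 2.52 CPM in AD and at 0.313 and 0.217 CPM in AD/KO (−3.09, SE 0.67). In both genes each AD library was far above the AD/KO libraries. None of the 30 had an adjusted p under 0.05 by edgeR, and DESeq2 called 2 of them.

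Of 25 other replication genes, 14 were lower in both AD/KO libraries and 0 higher in both, beside 21.7% and 20.3% of all genes. With scaling to the homeostatic list 2 of 25 were lower in both, beside 11% of all genes. Their median log2 fold change was −0.52. Clspn, an adaptor of the replication checkpoint, was at 3.63 and 6.64 CPM in AD and at 1.67 and 1.52 CPM in AD/KO, and Cdc45, a helicase partner, was at 2.61 and 6.27 CPM in AD and at 1.46 and 1.36 CPM in AD/KO. Dut and Cdc7 had log2 fold changes of 0.70 (SE 0.71) and 0.30 (SE 0.63), and their groups overlapped. The sums of the list overlapped between the groups, at 173 and 225 CPM in AD and 143 and 176 CPM in AD/KO.

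Genes that set the entry into the cycle went both ways. The 10 tested of 11 G1 cyclins and kinases had a median log2 fold change of −0.36. Of all 11, 4 were lower in both AD/KO libraries and 1 was higher in both, beside 21.7% and 20.3% of all genes. The 4 include Cdc25c, which had too few reads to be tested. Cdk2 was lower in both AD/KO libraries (26.4 and 22.4 CPM in AD, 20.1 and 7.98 CPM in AD/KO) and Ccnd2, cyclin D2, higher in both (16.4 and 25.4 CPM in AD, 27.2 and 66.04 CPM in AD/KO). Cdc25a and Cdc25b, phosphatases that switch on the kinases, had log2 fold changes of −0.59 (SE 0.35) and 0.87 (SE 0.69). The 16 inhibitors had a median of −0.29, and 6 were lower in both AD/KO libraries, beside 21.7% of all genes. With scaling to the homeostatic list 2 of the kinases and cyclins and 2 of the inhibitors were, beside 11% of all genes. Of the 6, Cdkn2c was at 5.30 and 7.93 CPM in AD and 2.55 and 3.36 CPM in AD/KO, and Btg1 at 122 and 127 CPM in AD and 90.0 and 57.9 CPM in AD/KO. The mitotic brakes Wee1 and Pkmyt1 were at log2 fold changes of 0.53 (SE 0.61) and 0.38 (SE 0.55).

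The 17 transcription factors of the cycle had a median log2 fold change of −0.14. In both AD/KO libraries 8 were lower and 2 higher, beside 21.7% and 20.3% of all genes, and with scaling to the homeostatic list 2 were lower, beside 11%. Foxm1, which switches on mitosis genes, was at 8.93 and 11.002 CPM in AD and at 3.75 and 2.33 CPM in AD/KO. Its log2 fold change was −1.71 (SE 0.48, edgeR unadjusted p = 0.0162, adjusted p = 0.680). E2f8, a repressor made late in S phase, was at 3.19 and 10.1 CPM in AD and at 1.15 and 0.977 CPM in AD/KO (−2.64, SE 0.75). In both genes the groups did not overlap. E2f6 and Lin52 were at log2 fold changes of 0.58 (SE 0.36) and 0.40 (SE 0.46). In these 5 lists 0 genes had an adjusted p under 0.05 by edgeR, 20 had an unadjusted p under 0.05, all lower in AD/KO, beside 2.3% of all genes. Of these 20, 16 were other mitosis genes. DESeq2 called 2, both lower, beside 0.248% of all genes.

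Short elements at the start sites of the S phase and the mitosis members were also counted. E2F factors bind a GC-rich element in S phase promoters, and the cell cycle homology region (CHR) is bound by the DREAM and MuvB complexes in mitosis promoters. RefSeq promoter windows (GRCm38.p6, 250 bases before to 50 after a start) were at hand for 14 of 17 S phase and 19 of 23 mitosis members. Windows were searched on both strands for the CHR (TTTGAA or TTCGAA), for the E2F element (TTTCCCGC, TTTCGCGC, TTTGCCGC or TTTGGCGC) and for the CCAAT box. A CHR match was in 15 of 20 mitosis windows (75%) and 2 of 16 S phase windows (12.5%), against 19.2% of all 32851 windows. An E2F match was in 7 of 16 S phase windows (43.8%) and 1 of 20 mitosis windows (5%), against 2.26% of all. CCAAT was in 80% of mitosis and 68.8% of S phase windows, against 37.4% of all. In 1 member window the matches of different elements shared a base. These are matches of letters, not measured binding.

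**Figure D4:**
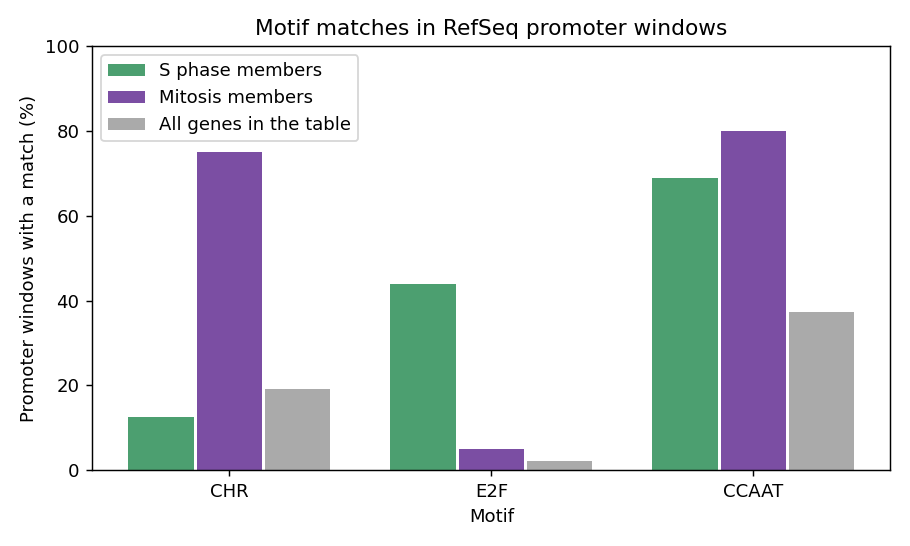
Share of RefSeq promoter windows (%) with a match to the CHR, E2F or CCAAT letters, for the S phase members (16 windows), the mitosis members (20 windows) and all 32851 windows of the table, 1 bar per set. CHR is most frequent in mitosis windows (75%) and E2F in S phase windows (43.8%).

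To show these elements, the bases from 160 before the start are given 5′ to 3′ on the strand of the gene for 4 mitosis members that were lower in both AD/KO libraries and for 2 helicase subunits, with CHR and E2F matches on either strand in capitals and CCAAT boxes not marked. Bases that RefSeq counts inside the gene are left out. A match was neither present in all members lower in both AD/KO libraries nor confined to them. No test compared members with and without a match. Ccnb1, Cenpe, Birc5, Nusap1 and Melk had no CHR match in their windows and were also lower in both AD/KO libraries. Ccnb2, Bub1b and Anln held CHR matches, and their groups overlapped. Mcm2, lower in both AD/KO libraries, had no E2F match, and Mcm7, whose groups overlapped, had E2F matches. Mki67 (chr7:135716451-135716539, minus strand) holds CHR matches that begin 116 and 98 bases before the start. Top2a (chr11:99024200-99024349, minus strand) holds 3, at 140, 120 and 23 bases. Cdk1 (chr10:69352913-69353072, minus strand) holds CHR matches at 71 and 15 bases and an E2F match at 131 bases, the only E2F match in the mitosis windows. Kif11 (chr19:37376222-37376381, plus strand) holds a CHR match at 19 bases. Mcm6 (chr1:128359706-128359865, minus strand) and Mcm5 (chr8:75109349-75109467, plus strand) hold E2F matches and no CHR match in these bases, with a pair of overlapping matches on opposite strands in each.
Mki67: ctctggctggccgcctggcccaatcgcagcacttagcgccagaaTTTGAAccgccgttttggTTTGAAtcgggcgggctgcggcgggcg
Top2a: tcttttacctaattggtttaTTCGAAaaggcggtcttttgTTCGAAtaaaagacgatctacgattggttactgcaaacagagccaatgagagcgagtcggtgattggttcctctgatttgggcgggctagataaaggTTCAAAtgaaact
Cdk1: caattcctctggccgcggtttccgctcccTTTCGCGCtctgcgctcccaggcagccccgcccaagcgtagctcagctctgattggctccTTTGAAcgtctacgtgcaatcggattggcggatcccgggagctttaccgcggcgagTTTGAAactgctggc
Kif11: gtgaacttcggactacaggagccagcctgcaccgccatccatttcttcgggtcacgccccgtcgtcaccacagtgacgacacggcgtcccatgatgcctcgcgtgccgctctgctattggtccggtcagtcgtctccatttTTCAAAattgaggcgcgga
Mcm6: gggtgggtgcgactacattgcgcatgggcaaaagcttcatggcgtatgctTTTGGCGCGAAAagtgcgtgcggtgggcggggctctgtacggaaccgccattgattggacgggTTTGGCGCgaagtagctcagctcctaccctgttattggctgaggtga
Mcm5: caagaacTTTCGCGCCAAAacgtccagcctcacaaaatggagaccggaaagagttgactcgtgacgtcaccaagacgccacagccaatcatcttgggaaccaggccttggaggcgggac

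The kit kept strand, but whether the authors' counting used it was not given in the sources used here. Genes on the other strand could therefore raise or lower the counts of some members. Gse1 covers 67.3% of the exon length of Gins2, Cdc23 29.3% of Kif20a, Tnnc2 22.8% of Ube2c, Ints8 17.4% of Ccne2, Exosc9 12.5% of Ccna2 and Rccd1 11.1% of Prc1. Gse1 had 1837 to 4648 reads, against 35 to 64 for Gins2. The counts of these 6 members are uncertain to that extent. For Mki67, Top2a, Cenpf and the 6 helicase subunits, an exon on the other strand covered at most 7.25% (Ap4m1 over Mcm7).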

How the data were processed

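The 4 bulk RNA-seq libraries (AD and AD/KO, n = 2 each) came from TRIzol RNA, depleted of ribosomal RNA and made into stranded libraries, per the labels' protocols. The authors deposited raw read counts as whole numbers for each gene symbol. HISAT2, SAMtools, featureCounts and the build mm10 are named in the submitters' processing notes, and settings were not given in the sources used here. Broken lines (11 in each table) cost the counts of 4 genes, none of them members.

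Genes were kept by filterByExpr (minimum count 10, minimum total 15) in edgeR 4.0.16 under R 4.3.3, scaled by TMM and tested (quasi-likelihood, two-sided, 4 libraries, no covariate) with Benjamini-Hochberg adjustment over all genes at 0.05. The SE is the log2 fold change divided by the square root of F. CPM values are after TMM scaling. Summed levels cover every gene of a list. Exon lengths and overlaps are from GENCODE M21 (GRCm38), and coordinates from RefSeq for GRCm38.p6, counted from 1. Near-identical copies were searched with BLAST at 95% identity over at least 100 bases. The procedure was tested on simulated data. Reads carry no molecular identifiers.

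The alternatives were DESeq2 1.42.0, DESeq2 size factors, no filter, a filter at a mean of 1 CPM, scaling to the homeostatic list, protein-coding genes alone, the replicate block and leaving out each library. Values in every library were given by rule for Mki67, Top2a, Pcna and, in each set, the 6 members with the highest length-scaled level and the 3 with the smallest p; from each pathway list, those with the 2 smallest p-values in either direction were named. Other members were described by role, and for many of them values in every library were also given, outside this rule. Members, lists and rules were chosen with earlier results of these data known.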

Additional observations from a re-analysis of the deposited data

How the results depend on the processing

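The depth (13102622 to 19810076 counts) left members such as Ccnb1, Bub1, Aurkb and Melk with 3 to 13 reads in the AD/KO libraries, which limits their fold changes. The number of all genes called was 0 with edgeR, 86 with DESeq2 and from 0 to 524 with a library left out (524 without AD replicate 2, 48 without AD replicate 1), where the lone library of a group is assumed to vary like the other group. DESeq2 called 3 mitosis members, and edgeR called 0 to 3 of them with a library left out (3, without AD replicate 1) and 0 S phase members. With scaling to the homeostatic list the S phase median was −0.44 and the log2 ratio of the S phase sums −0.22. With a library left out, the S phase median ran from −1.16 to −0.73 and the ratio of sums from −1.001 to −0.51, in both the lower without AD/KO replicate 1. The mitosis median ran from −2.29 to −1.21 and its ratio of sums from −2.33 to −1.03, the smaller differences without AD replicate 2. With scaling to the homeostatic list the fitted values of Mcm7 (0.47), Anln (0.49), Ccne2, Gins2 and Rrm1 were above 0. When AD replicate 2 was left out, those of Mcm7 (0.06), Anln (0.60), Ccnb2 (0.10), Ccne2 (0.05), Cdc6 (0.04), Gins2 (0.08), Rrm1 (0.03) and Bub1b (0.06) were above 0. The same held for Anln (0.03), Ccne2 and Gins2 when AD/KO replicate 1 was left out, and for Mcm7 (0.04) when AD/KO replicate 2 was. With a library left out, Mcm7 ran from −0.20 to 0.057, Anln from −0.60 to 0.60 and Ccnb2 from −1.59 to 0.10. The cause was not tested. Among the counts, medians and sums under alternatives, 53 kept their direction and size, 8 gained calls and 6 moved. Among the members named by rule, 143 values kept direction and side of the threshold, 15 passed the threshold and 7 changed direction. Those that passed include values from the replicate block.

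The groups share the replicate numbers 1 and 2, which the labels do not tie to a litter, batch or day. The deviations of same-numbered libraries correlated at 0.72 across 21439 genes. With 2 libraries a group the deviations of a gene are equal and opposite, so any difference shared by both groups gives such a value. It therefore cannot show that the libraries were paired. The replicate block also leaves little to measure the spread from. With the replicate block edgeR called 4333 genes (20.2%), 14 of 23 mitosis and 9 of 17 S phase members, all of these members lower in AD/KO, beside 6.79% of all genes called lower.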

Other observations

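A copy of Pcna had more reads in AD than in AD/KO. Pcna-ps2 (gene ID 18540, a pseudogene, chromosome 19, 9283238 to 9284495) matches the Pcna transcript at 99.2% identity over 781 bases. It had 25 and 26 reads in AD and 3 and 0 reads in AD/KO. With AD/KO taken at a floor of 3 reads in each library, its mean in AD was at least 10.7-fold higher. Pcna overlapped between the groups (22.4 and 27.6 CPM in AD, 23.1 and 13.02 CPM in AD/KO). A copy of Ccnb1, Gm12856, had 3 and 4 reads in AD and 21 and 6 reads in AD/KO. Both pseudogenes were chosen after their values were seen, so no test is given.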
